A study of Mus musculus with 2 samples.

Results

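Rab GTPases are the largest branch of the Ras superfamily of small GTP-binding proteins. Each one cycles between a GDP-bound form, held in the cytosol by a GDP dissociation inhibitor, and a GTP-bound form on a particular membrane, where it recruits effectors that bud, move, tether or fuse vesicles. Because different Rabs sit on different organelles, the family is often read as a map of the compartments and secretory routes that a cell keeps. The genes were taken by symbol, as Rab followed by a number and at most a letter and a further digit, so that regulators such as Rabac1 and pseudogenes such as Rab7-ps1 stayed out. The pattern found 59 Rab genes among 21924 protein-coding genes annotated in GENCODE M21 (mouse build GRCm38), and 53 of them were among the 15127 genes of the count table.

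The RNA came from pSM44, a line of female mouse embryonic stem (ES) cells bred from an F1 cross of 129 and castaneus mice. In this line a tetracycline-inducible promoter drives Xist, the RNA that silences an X chromosome, at its own locus on the 129 allele. The cells were grown without serum in 2i/LIF, a medium that holds ES cells in a naive state, and given doxycycline at 2 μg/mL for 24 h. The 2 poly(A) RNA libraries both belong to this 1 group. The deposited table has 1 column of counts, which names neither library and may hold both or only 1. Every gene therefore has 1 value, with no replicate error, no untreated cells beside it and no test. The table summed to 10017978 counts, and its smallest entry was 1 count. A gene that is absent from it is called not listed, and no level or fold is given for it. ES cell markers fixed for the check of the labelled cell type were all listed, with a median of 291 CPM (counts scaled to 1000000 in all) per kilobase of exon. Pou5f1 stood at 315 and Nanog at 402 on that scale. Markers of other cells were mixed. On the neuron list Snap25, Syp and Tubb3 were not listed, and Stmn2 had 1294 counts. On the fibroblast list Col3a1, Dcn and Lum were not listed, while Thy1 had 267 counts (8.90 CPM per kilobase), Col1a2 66 and Col1a1 58. On the blood list Ptprc, Csf1r, Hbb-bs and Itgam were not listed and Cd68 had 301 counts. All 5 primitive endoderm markers were listed, with a median of 0.291 CPM per kilobase and at most 84 counts, in Dab2. The missing Tubb3 and Itgam say little, as 100% and 99.1% of their exon bases lie under another coding gene, where few genes were listed at all.

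A feature that the Rab genes have in common at the sequence level is cysteine near the end of the protein. Rab geranylgeranyl transferase attaches lipid tails to cysteines close to the carboxyl terminus, and these tails anchor the protein in its membrane. The last 30 bases of the annotated coding sequence, read on the coding strand up to and including the stop codon, are shown for a member of each main compartment, with in-frame cysteine codons (TGT or TGC) in capitals.

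Rab1a: gtcaagcagtcaggtggaggcTGCTGCtaa
Rab2a: ggacagcaggcagggggaggcTGCTGTtga
Rab6a: ccagtcaatgaaggcggcTGTtccTGCtaa
Rab8a: accagcttcttccggTGCagtctcctgtga
Rab5c: gccagccggagccagTGCTGCagcaactga
Rab11a: ccaaaggtgcagTGCTGTcagaacatctaa
Rab7: aaggcctccgcagaaagcTGCagtTGTtga
Rab9: aagcccaagccaaactcatctTGCTGTtga
Rab3a: gcgccacctcatcaggatTGTgccTGCtga
Rab40c: TGCtctcggagcaacTGCaagatctcctag

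In Rab1a, Rab2a and Rab9 the pair of cysteine codons is the last thing before the stop, in Rab6a, Rab7 and Rab3a another codon stands between them, and in Rab5c and Rab11a further codons follow. Rab8a has a single cysteine codon there. Of the 59 Rab genes, 50 (84.7%) had at least 2 cysteine codons among the last 5, and the other 9 had 1. Among 21483 protein-coding genes with a complete coding sequence, 415 (1.93%) had at least 2 and 87.6% had none. Rab coding sequences were short, with a median of 648 bases against 1179 for all genes. The exception in length was Rab44, an atypical large Rab, at 2178 bases.

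Most Rab genes were represented in these cells. At CPM 1 or more, which is 11 counts in this table, stood 45 of the 59 annotated Rab genes (76.3%), beside 55.2% of all annotated protein-coding genes. Among listed genes only, the share was 84.9% for Rab genes and 80.2% for all. The gap between the family and all annotated genes narrowed as the minimum was raised. At CPM 0.5 the counts were 48 of 59 (81.4%, beside 58.6%), at CPM 5 they were 38 (64.4%, beside 45.9%) and at CPM 10 they were 31 (52.5%, beside 40.6%). At CPM 100 stood 8 Rab genes (13.6%, beside 10.7%). Together the Rab genes held 22611 counts, 0.226% of the table (exact Clopper-Pearson 95% interval 0.223% to 0.229%, counting error only). Their levels are given below as CPM per kilobase of exon, since a longer transcript collects more fragments. The median level of the 53 listed Rab genes was 4.65 and that of all listed genes 3.78, and 27 of the 53 lay above the median gene. Without the length correction the order was the other way round, with a median of 14.4 CPM for Rab genes and 18.3 CPM for all genes. It was also reversed among genes with at most 10% of their exon bases under another gene, at 3.38 for 40 Rab genes and 4.27 for all.

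The family was spread over the whole range of the transcriptome. In the top decile of listed genes were 6 of its genes, in descending order Rab1a, Rab1b, Rab5c, Rab2a, Rab9 and Rab6a, and 8 were in the lowest quartile. The 5 highest held 49.7% of the summed level of the family and the 10 highest held 69.7%. Exact Poisson 95% intervals of neighbouring genes in the order of levels were apart in only 6 of 52 cases, so the order is read in tiers and not gene by gene.

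**Figure D1:**
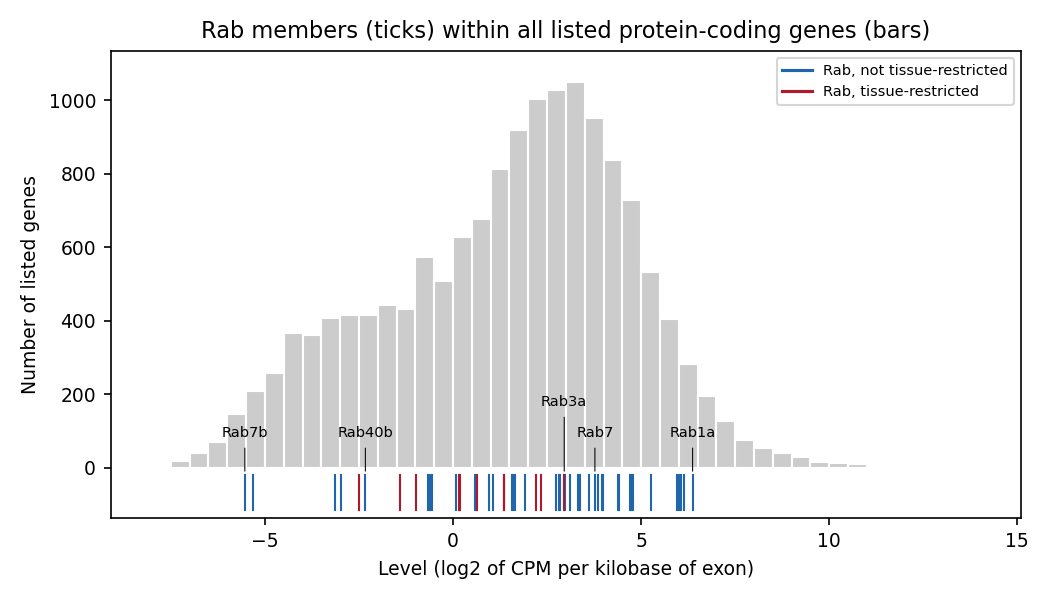
Levels of the 53 listed Rab genes (ticks under the axis, red for tissue-restricted members and blue for the others) below the histogram of all listed genes; the x axis is log2 of CPM per kilobase of exon and the y axis the number of genes per bin. Rab1a, at 82.6 CPM per kilobase, lies in the right shoulder and Rab7b, with 1 count, near the left edge.

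Traffic between the endoplasmic reticulum (ER) and the Golgi had the highest Rab genes and also some of the lowest. Rab1a and Rab1b, which act in tethering of vesicles that leave the ER, were first and second in the family. Rab1a (chr11:20201432-20226856, plus strand) had 3144 counts and a level of 82.6 (exact Poisson 95% interval 79.7 to 85.5). Rab1b (chr19:5099205-5107072, minus strand) had 1612 counts and a level of 70.8 (67.4 to 74.4). The pair made up 21.9% of the summed Rab level. Rab2a (chr4:8535644-8607778, plus strand), which works on Golgi membranes and in retrieval to the ER, stood at 64.6 (61.2 to 68.1) from 1380 counts. Rab6a, the Rab of retrograde Golgi traffic, stood at 38.5 (36.5 to 40.5) from 1437 counts, with 21.97% of its exon bases under Mrpl48, a coding gene on the opposite strand. After these 4 the levels dropped to 7.88 for Rab18, a Rab of the ER and lipid droplets, then 4.65 for Rab33a and 3.13 for Rab33b. Rab39 (1.95), Rab6b (1.53), Rab2b (1.06) and Rab30 (0.632) followed, and Rab39b, Rab19 and Rab36 had 6, 2 and 7 counts. The compartment thus combined the largest share of the family, 39.7% of the summed level, with a median of only 2.54 over its 14 listed genes of 15. Of those 15, 11 reached CPM 1.

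Early endosome Rabs were all present. The 7 annotated genes were listed and reached CPM 1, with a median of 9.98. Rab5c (chr11:100715009-100738215, minus strand), one of 3 Rab5 genes whose products drive fusion of early endosomes, stood at 67.0 (63.6 to 70.5) from 1472 counts. Rab5b stood at 15.8 (14.6 to 17.0) and Rab5a at 9.98 (9.15 to 10.9). Rab21, which carries integrins through endosomes, lay between these at 12.3 (11.4 to 13.3). Rab31 (6.68) and Rab22a (2.99) were lower, and Rab20, a Rab of maturing phagosomes, was the lowest at 1.51 from 21 counts.

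Recycling from endosomes to the plasma membrane was represented by Rab35, Rab11a and Rab14 before the others. Rab35, which acts in fast recycling and cytokinesis, had a level of 27.5 (25.6 to 29.5) and Rab11a, the Rab of the recycling endosome, 26.0 (24.2 to 27.8), with overlapping intervals. Rab14 stood at 10.4 (9.82 to 10.9) and Rab11b at 7.08 (6.43 to 7.78). The value of Rab14 depends on its length. Its 1409 counts were in the range of Rab6a, but its annotated exons add up to 13.589 kb, the longest of the family, and per kilobase of its longest single transcript the level was 28.1. The epithelial members of the group were low, at 1.55 for Rab25 (26 counts) and 0.501 for Rab17 (10 counts). Rab4a, Rab4b and Rab15 were not listed. Altogether 6 of 9 recycling genes were listed and 5 reached CPM 1, with a listed median of 8.72.

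In late endosomes and lysosomes, Rab9 stood well above Rab7. Rab9 (chrX:166457253-166479867, minus strand), which returns mannose 6-phosphate receptors to the trans-Golgi, had 1093 counts and a level of 62.4 (58.7 to 66.2). Rab7, the Rab of late endosome and lysosome fusion, had 357 counts and a level of 13.7 (12.3 to 15.1). Rab12, which routes transferrin receptor to lysosomes, lay between them at 20.998 (19.4 to 22.7). Of the exon bases of Rab7, 67.9% lay under other genes, none of them coding, against 0% for Rab9. The part of this overlap in the difference between Rab9 and Rab7 was not tested. Rab29, known for recruiting the kinase Lrrk2, stood at 7.14 (5.84 to 8.64). Rab7b and Rab9b had 1 count each. The group combined a median of 10.4 with the 2 lowest listed genes of the family. That was the highest median of the 8 compartments per kilobase of exon only, since recycling genes had the highest without length correction (60.5 CPM against 23.1 CPM), per kilobase of gene span and per kilobase of the longest transcript.

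Polarised exocytosis and the primary cilium were small groups in which every gene was above CPM 1. Rab8a, which carries cargo from the trans-Golgi to the surface and to the cilium, stood at 26.9 (25.4 to 28.4) from 1260 counts. Rab10, known for insulin-driven delivery of glucose transporters, stood at 15.6 (14.3 to 17.0), Rab8b at 2.95 and Rab13, a Rab of tight junctions, at 2.08. Of the cilium genes, Rab34, needed early in cilium formation, stood at 14.52 (13.0 to 16.1), Rab28 at 8.60 (7.76 to 9.49) and Rab23, a negative regulator of Hedgehog signalling, at 3.76 (3.35 to 4.20). Among the remaining genes Rab40c, which carries a SOCS box and serves ubiquitin ligases, had 655 counts and a level of 21.1 (19.5 to 22.8), while Rab40b had 4 counts. Rab24, linked to autophagy, stood at 2.58, and Rab42 had 5 counts.

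Regulated secretion and lysosome-related organelles were represented by many genes at low levels. Of 11 annotated genes 9 were listed and all 9 reached CPM 1, but the highest of them, Rab3a, stood at 7.76 and 20 Rab genes of other compartments were above it. The median of 2.57 was close to the 2.54 of the ER and Golgi genes, so the group lacked high genes more than it had a low median. The group held 4.14% of the summed level. Per kilobase of gene span the share was 7.22% with 8 genes of other compartments above Rab3a, and among genes with little overlap it was 2.84%. The Rab3 genes, which act in release of synaptic and secretory vesicles, stood at 7.76 (6.64 to 9.004) for Rab3a, 7.70 (6.82 to 8.68) for Rab3b and 2.57 (2.11 to 3.10) for Rab3d, and Rab3c was not listed. Rab26 stood at 5.04 (4.25 to 5.93). Rab27a, needed for melanosome transport and for release of lytic granules, stood at 2.57 (2.09 to 3.13), and its paralog Rab27b was not listed. Rab38 (1.14) and Rab32 (0.683), which act in melanosome biogenesis, Rab44 (1.12) and Rab37 (0.375) had between 16 and 57 counts each.

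**Figure D2:**
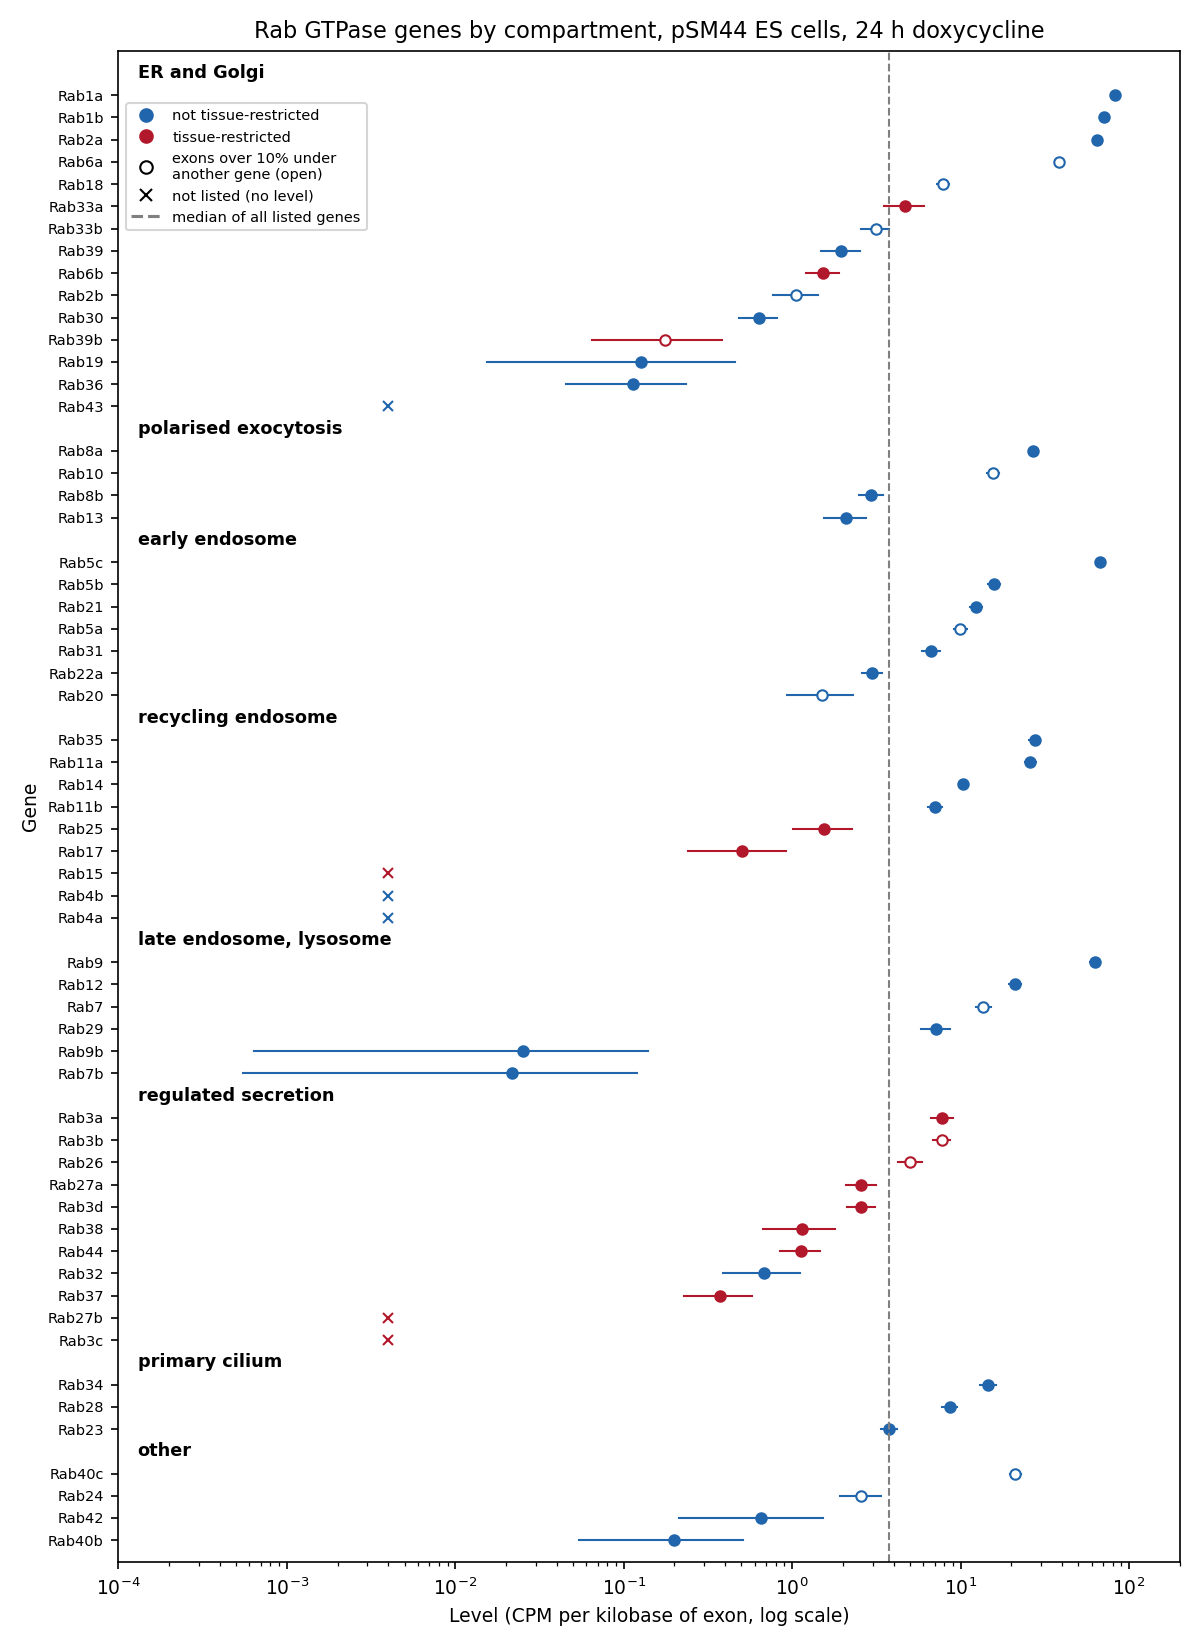
Level of every Rab gene (CPM per kilobase of exon, log axis) by compartment; points are the single table value, bars the exact Poisson 95% interval, open circles genes with over 10% of their exon bases under another gene, crosses genes that were not listed, placed at the left without a level, and the dashed line the median of all listed genes, 3.78. The ER and Golgi group runs from 82.6 for Rab1a to 0.113 for Rab36, and no regulated secretion gene exceeds 7.76.

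Of the 59 Rab genes 16 are known mainly from particular tissues, and they lay lower than the rest of the family. Of these, 13 were listed and 11 (68.75%) reached CPM 1, against 40 and 34 (79.1%) of the other 43. Among all annotated protein-coding genes 55.2% reached CPM 1. The median level was 1.55 for the tissue-restricted genes and 7.51 for the others, a ratio of 4.84. Tissue-restricted genes held 5.25% of the summed level. Rab1a was 10.6-fold above Rab3a, the highest of them. Rab3a and Rab3b were just above the median of the other Rab genes, by less than their counting intervals, and without length correction none of the 13 was above it (17.3 CPM for Rab3a and 27.2 CPM for Rab3b against 35.1 CPM). The classes were not alike. The neuronal and endocrine genes had a listed median of 4.85 over 6 genes (Rab3a, Rab3b, Rab26, Rab33a, Rab6b and Rab39b, with Rab3c and Rab15 not listed). The genes of blood cell granules and melanocytes had a median of 1.13 over 4 genes (Rab27a, Rab38, Rab44 and Rab37). The epithelial pair, Rab25 and Rab17, had a median of 1.03, and the exocrine Rab3d stood at 2.57. On the list of neuron markers 3 of 6 were listed, and their 136 summed CPM came mostly from Stmn2. On the blood list 1 of 5 markers was listed. The part of other cells in the levels of these Rab genes was not tested.

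Subfamilies of close paralogs were mostly led by a single gene. Of 17 subfamilies, 15 had at least 2 listed genes, and in 10 of these the leading gene held at least 75% of the summed level of its subfamily. The share was 90% or more in 8: Rab9, Rab7, Rab34, Rab40c, Rab2a, Rab6a, Rab39 and Rab8a. Rab8a was at the edge of this with 90.1%. Rab39 rested on 58 counts against 6 for Rab39b, and held 73.0% per kilobase of gene span. How often other gene families have such a leader was not counted, so the numbers of led subfamilies have no background beside them. Rab9 was 2487-fold above Rab9b, with an interval of 445 to 98329 because Rab9b had 1 count. Rab2a was 61.2-fold above Rab2b (45.4 to 84.6), Rab6a 25.2-fold above the neuronal form Rab6b (20.02 to 32.1) and Rab8a 9.11-fold above Rab8b (7.64 to 10.9). These intervals are exact binomial and cover counting error only, and the sizes of the folds depend on the length used. Per kilobase of gene span they were 513 for Rab9, 7.73 for Rab2a, 40.5 for Rab6a and 30.1 for Rab8a, and without length correction 1093, 31.4, 18.7 and 9, with the same gene ahead each time. Rab2a then held 88.6% per kilobase of gene span. Of the exon bases of Rab2b 67.7% lay under other genes, and the part of this overlap in the Rab2a folds was not tested. In the Rab11 subfamily Rab11a held 75.04%, with Rab11b 3.66-fold (3.25 to 4.13) and Rab25 16.7-fold (11.3 to 25.8) below it. That share is at the edge of the threshold, and it was 62.8% without length correction, where Rab11b was 1.79-fold below, and 55.1% per kilobase of gene span, where it was 1.44-fold below. Rab5c held 72.2% of the Rab5 subfamily and was 4.24-fold (3.87 to 4.66) above Rab5b and 6.71-fold (6.07 to 7.43) above Rab5a. Without length correction these folds were 2.22 and 2.79.

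Other subfamilies were shared per kilobase of exon. Rab1a was 1.17-fold above Rab1b (1.10 to 1.24), and Rab3a and Rab3b differed by less than counting error (1.01-fold, 0.827 to 1.22). Rab31 was 2.23-fold above Rab22a (1.85 to 2.69) and Rab33a 1.49-fold above Rab33b (1.05 to 2.08). In these subfamilies the leader depends on how length is treated. Rab3 is the clearest case, as Rab3a held 75.1% and Rab3b 7.35% per kilobase of gene span. Without length correction Rab3b led with 49.2% and Rab33b with 67.3%, and per kilobase of gene span Rab1b led with 62.4%, Rab22a with 68.3% and Rab33b with 64.6%. No leader of a subfamily at 75% or more was replaced under those settings.

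**Figure D3:**
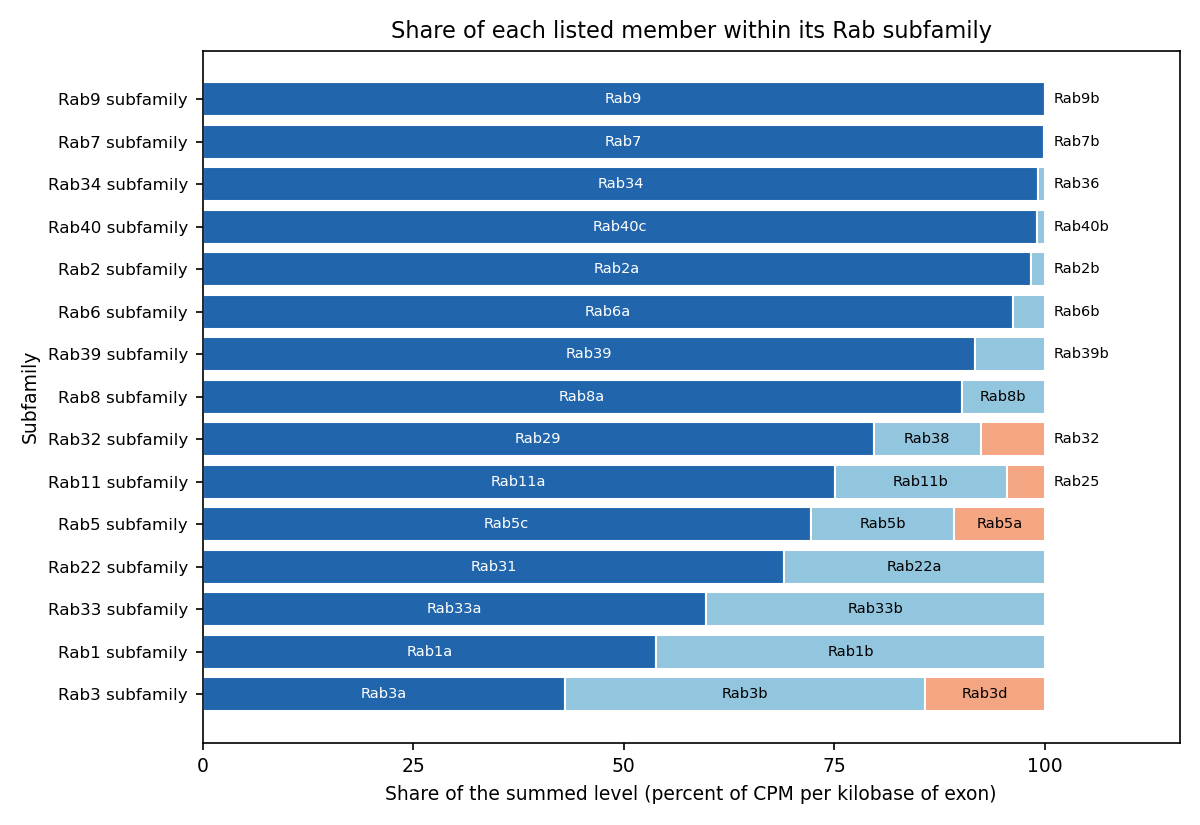
Share of each listed gene in the summed level (CPM per kilobase of exon, percent) of its Rab subfamily, for the 15 subfamilies with at least 2 listed genes; each bar is a subfamily and each segment a gene. Rab9 fills 99.96% of its bar, whereas Rab1a and Rab1b take 53.8% and 46.2%.

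Paralogs are similar enough in coding sequence to raise the question of shared reads. Identity between aligned coding sequences of pairs within a subfamily ran from 62.7% (Rab7 and Rab7b) to 78.5% (Rab6a and Rab6b). Over stretches of 50 bases the members were nearly free of each other. The largest share of 50-base windows of a Rab transcript that also occurred in a transcript of another Rab gene was 0.347%, in Rab11b. The windows were those of the longest transcript of each Rab gene, and in 30 of the 53 listed genes none occurred in a transcript of another gene. Such windows do not see overlap with introns, and Rab26, with 24.5% of its exon bases within Traf7 on the same strand, was among the 30. Larger shares were with pseudogenes or overlapping genes, for example 14.46% of the Rab7 windows in Rab7-ps1, 7.87% of those of Rab9 in Rab9b-ps1, 48.9% of those of Rab24 in Prelid1 and 68.3% of those of Rab2b in Gm43766. Counts of these 4 genes could have been split or left out by the counting, and the sources used here do not give how reads with several places were treated.

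The genes that were not listed call for the same care. Rab3c, a neuronal paralog of Rab3a, and Rab27b had no exon base under another coding gene. The other 4 lay almost wholly under one. All exon bases of Rab15 lay under Fntb, the beta subunit of farnesyltransferase, on the opposite strand, and Fntb had 1084 counts. On the same strand as the Rab, Rab4a lay under Gm20388, Rab4b under Gm21983 (99.7% of exon bases) and Rab43 under Gm45140 (99.9%), 3 coding gene models of which none was listed. All genes with at least 90% of their exon bases under another coding gene were seldom listed, at 130 of 1337 (9.72%). Whether the missing counts of Rab4a, Rab4b, Rab15 and Rab43 come from that overlap was not tested. The 42 Rab genes with at most 10% of their exon bases under another gene gave 33 at CPM 1 or more (78.6%), beside 57.9% of all genes with as little overlap. The median of the 40 listed ones among them was 3.38, below the 4.27 of all listed genes of that kind, and the 13 listed Rab genes with more overlap had a median of 7.70. Among the overlapped genes were Rab40c, with all exon bases under non-coding genes on the opposite strand, and Rab10 (69.5%), Rab7 (67.9%), Rab2b (67.7%), Rab24 (62.4%) and Rab18 (49.2%). The sources used here do not give the strand setting of the counting.

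By the share at CPM 1, the machinery that loads, switches and reads Rab proteins was represented more widely than the family itself. Of 136 annotated genes on 8 lists, Rab-like genes included, 122 (89.7%) reached CPM 1, again beside 55.2% of all genes. Of the Rab genes 76.3% did, and this minimum is not corrected for length. Per kilobase of exon the levels were close, with a median of 4.86 for the 128 listed ones and 4.65 for the listed Rab genes. The genes that prenylate Rabs and extract them from membranes had the highest median, 36.2 over 7 listed of 8. Among them Rabac1, a receptor that frees Rabs from the dissociation inhibitor, stood at 67.2, the dissociation inhibitor Gdi2 at 41.7 and Rabggtb, the catalytic subunit of the Rab prenyl transferase, at 36.7. The escort protein gene Chm was the lowest at 7.44, and its paralog Chml, with 99% of its exon bases under another coding gene, was not listed. All 13 listed subunit genes of TRAPP, the complexes that activate Rab1 and Rab11, were above the median gene, with a median of 7.11. Trappc1 stood highest at 55.3, followed by Trappc3 at 25.6 and Trappc4 at 21.97, and Trappc10 lowest at 4.49. The gene of the remaining subunit, Trappc2l, was not listed and lies under Gm20388, as Rab4a does.

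Exchange factors and GTPase-activating proteins were numerous and mostly at moderate levels. All 33 exchange factor genes reached CPM 1, with a median of 2.80. Dennd2c stood at 19.7, Ccz1, a subunit of the Rab7 exchange factor, at 19.5 and Dennd5a at 17.6, and the lowest was Dennd2d at 0.189. Of 35 genes for GTPase-activating proteins 31 reached CPM 1, with a median of 4.51. Tbc1d13 stood at 69.7, a level in the range of Rab1b, Tbc1d10b at 30.5 and Tbc1d1 at 24.1, and the lowest at CPM 1 or more was Evi5l at 0.586. Tbc1d10c and Tbc1d22b were not listed.

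The effectors that active Rabs recruit differed in level between routes. Golgi effectors had a median of 9.16, with the vesicle tether Uso1, which binds Rab1, at 56.1, Gorasp2 at 38.3 and the kinesin Kif20a at 33.3, and Bicd1 lowest at 0.204. Endosome effectors had a median of 6.24, led by Rab11fip5 (20.8), Rab11fip4 (14.4) and Osbpl1a (13.9), with Rab11fip2 the lowest at CPM 1 or more at 1.74. Secretion effectors had a median of 1.22 over 11 listed genes of 13, of which 1 was above the median of all genes. That gene was Rims2, an active zone protein that binds Rab3, at 7.03. Myo5a, the motor that Rab27a recruits, stood at 3.77 and Unc13d at 2.03, Rph3al was the lowest at CPM 1 or more at 0.602, and Rph3a and Sytl2 were not listed. Of 7 Rab-like genes 5 were listed, with Rabl6 at 13.3, Rabl3 at 5.08 and Ift27, part of the intraflagellar transport machinery, at 3.45, and Ift22 the lowest at 2.57. Rasef and Cracr2a were not listed.

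**Figure D4:**
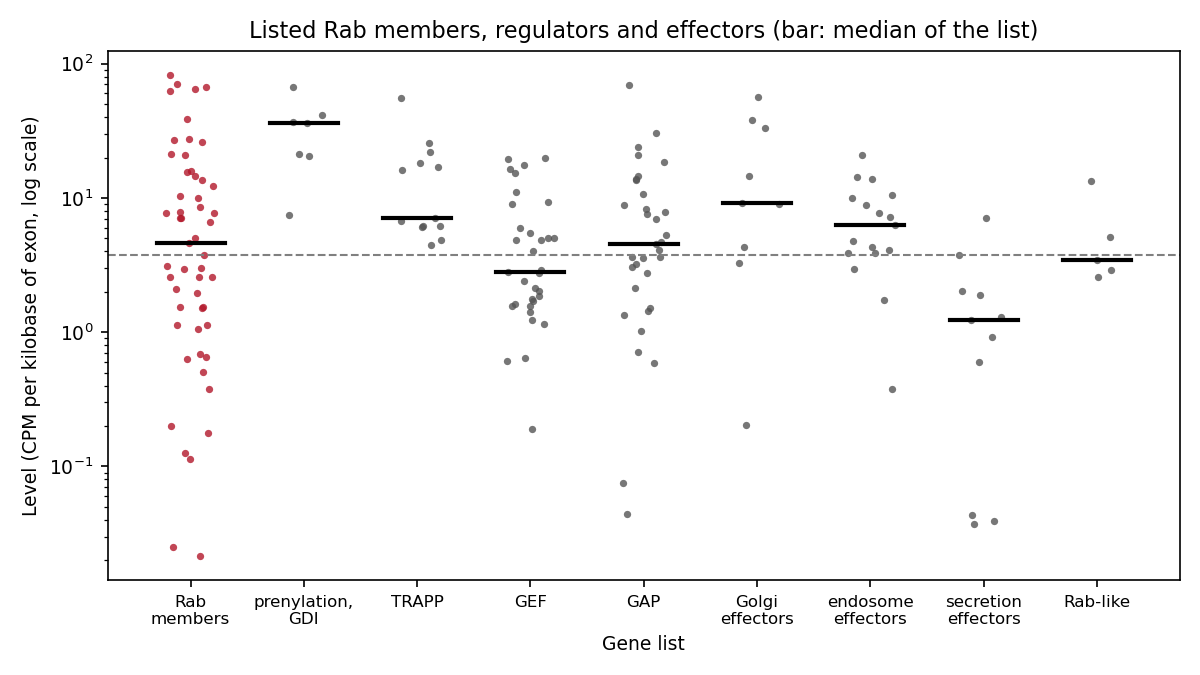
Levels (CPM per kilobase of exon, log axis) of listed Rab genes (red) and of listed genes on the 8 lists of regulators, effectors and Rab-like genes (grey). Each point is a gene, the black bar the median of the list and the dashed line the median of all listed genes. The prenylation and extraction genes lie highest with a median of 36.2, and the secretion effectors lowest with a median of 1.22.

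Promoter windows of 48 of the 59 Rab genes were taken from RefSeq (build GRCm38.p6), each running from 250 bases before to 50 after the annotated start. The median number of CG dinucleotides in the window was 20 for Rab genes and 14 for 16522 genes. Windows with at least 20 made up 52.1% of the Rab promoters and 37.5% of all. Restricted to genes at CPM 1 or more the shares were 57.9% and 56.2%. The 11 tissue-restricted Rab genes had a median of 11 and the 37 others a median of 23. Across 44 listed Rab genes the rank correlation of CG number with level was 0.363, and across 11721 listed genes 0.341; genes are not independent replicates, and all values come from the same table. Rab1a, at a level of 82.6, and Rab9, at 62.4, were both in the top decile but had unlike promoters. The last 120 bases before the start are printed for both, with CG dinucleotides in capitals, for Rab1a at chr11:20201292-20201411 on the plus strand and for Rab9 at chrX:166479868-166479987 on the minus strand.

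Rab1a: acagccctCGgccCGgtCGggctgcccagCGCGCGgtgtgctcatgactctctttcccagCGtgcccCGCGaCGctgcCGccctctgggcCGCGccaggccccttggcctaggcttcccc
Rab9: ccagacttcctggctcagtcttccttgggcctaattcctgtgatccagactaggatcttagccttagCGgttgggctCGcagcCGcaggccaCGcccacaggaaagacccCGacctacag

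The Rab1a stretch holds 13 CG dinucleotides and the Rab9 stretch 5, with 27 and 9 in their whole windows. At the other end, Rab6b had 42 in its window and a level of 1.53.

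**Figure D5:**
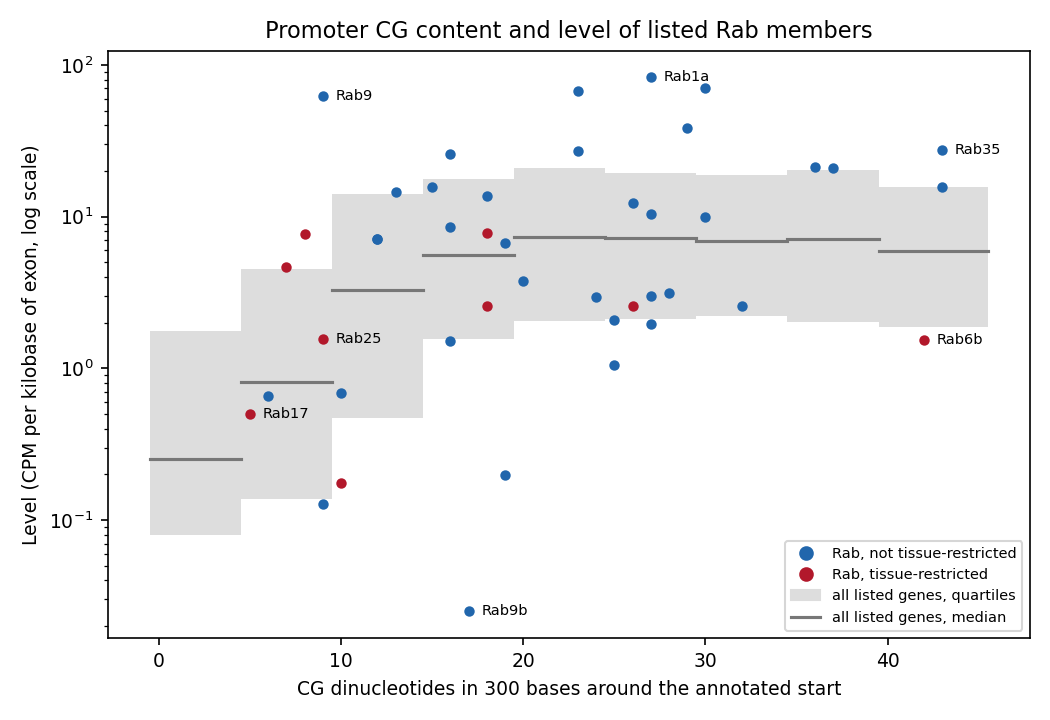
Number of CG dinucleotides in the 300 bases around the start (x axis) against level (CPM per kilobase of exon, log axis) for listed Rab genes with a promoter window, red where tissue-restricted; grey boxes are the quartiles and grey lines the medians of all listed genes in bins of CG number (the last bin holds 40 to 65). Rab9 lies far above its box with 9 CG dinucleotides, and Rab6b below its box with 42.

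Short motifs were then searched on both strands of the windows. The GC box GGGCGG was in 34 of 48 Rab windows (70.8%, against 48.0% of all), and among genes at CPM 1 or more the shares were 71.1% and 66.0%. CCAAT was in 23 (47.9% against 38.8%) and TATAAA in 4 (8.33% against 12.8%). CACGTG was in 5 (10.4% against 8.12%). The longer form with GT before and AC after CACGTG, which is a subset of those matches and the form bound by Tfeb and related activators of lysosomal genes, was in 3 Rab windows (6.25%) and in 77 of all (0.466%). These were the windows of Rab5a, Rab21 and Rab24, and 2 of the matches, which lie before the start, are printed with CACGTG in capitals (Rab5a, chr17:53479107-53479176, plus strand, and Rab21, chr10:115315595-115315653, minus strand).

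Rab5a: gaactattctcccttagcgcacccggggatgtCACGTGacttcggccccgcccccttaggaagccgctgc
Rab21: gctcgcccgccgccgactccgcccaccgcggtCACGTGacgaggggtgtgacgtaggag

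Rab5a and Rab21 are both early endosome genes, with levels of 9.98 and 12.3. A match is a description of letters in the window, and no binding was measured here.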

How the data were processed

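The authors deposited raw counts per protein-coding gene symbol in 1 column for the line and treatment; the labels' protocols describe poly(A) capture, fragmentation and adaptor ligation. The submitters' processing notes name Subread 1.6.4 with featureCounts, Trimmomatic 0.38, SAMtools, HISAT2 and the build GRCm38.p6. The sources used here do not give the annotation release, strand setting or feature type. The row order followed the count divided by gene span (rank correlation 0.9999) more closely than the count per exon base (0.920). Whether reads over introns were counted was not tested.

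Symbols were matched to GENCODE M21 (14896 directly, 182 by RefSeq synonym; the 49 unmatched held 0.129% of counts). Counts were scaled by the table total to CPM and divided by the union of exons. Single counts have exact Poisson and shares and ratios exact Clopper-Pearson 95% intervals, which cover counting error only since PCR reads that carry no molecular identifier are not separate molecules. At 11 counts the Poisson half-width is 64.5%. With 1 group and 1 column no test was made.

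Compartments, tissue classes, subfamilies and lists were assigned by hand from textbook roles; members and lists were chosen with earlier results of these data known. Every Rab gene may be named; of each list, the 3 highest, the lowest at CPM 1 or more and unlisted genes are named. Coding ends, 50-base windows, promoters and motifs were added after levels were seen. Functions were tested on simulated data. Alternatives changed the minimum, length, overlap and scaling. Software was pandas 2.3.3, scipy 1.17.1, numpy 2.4.6 and matplotlib 3.10.9 under Python 3.11.15.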

Additional observations from a re-analysis of the deposited data

How the results depend on the processing

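Of 59 Rab genes, 38 to 53 counted as represented at minimums from 1 count to CPM 5, against 45 at CPM 1. The number fell to 31 at CPM 10 and 8 at CPM 100. Among the 42 Rab genes with little overlap it was 33 at CPM 1 or more (78.6%, against 76.3% of all 59). The ratio of the Rab median to the median of all listed genes was 1.23. It turned to 0.787 without length correction and to 0.790 among genes with little overlap, a setting chosen after seeing the data, and was 4.34 with annotated but unlisted genes set to 0; by construction that setting adds more zeros to all genes than to Rab genes. The share of ER and Golgi genes in the summed level was 39.7%, and 37.7% without length correction, 36.4% per kilobase of gene span and 38.5% per kilobase of the longest transcript. The ratio of other to tissue-restricted medians ran from 3.51 to 6.18, and subfamilies led by 1 gene at 75% or more numbered 9 or 10. Regulators, effectors and Rab-like genes represented numbered 117 to 123. The led subfamilies were not all the same: Rab11a dropped out without length correction, and per kilobase of gene span Rab11a and Rab39 dropped out, Rab3a came in and 8 of the 10 were shared. Of 35 shares of the 7 other compartments under these settings, 25 moved by more than their counting interval and 10 did not. Leaving out each library in turn was not run, and no paired analysis was possible, because the table has 1 column that names neither library. Whether that column sums both libraries or holds only 1 is not given. At this depth the order of genes under about 11 counts is not resolved.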

Other observations

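The Rab genes lie on 18 chromosomes, with 7 on chromosome 17 (Rab5a, Rab11b, Rab12, Rab26, Rab31, Rab40c and Rab44) and 4 on the X. The X-linked genes were all listed but far apart in level. Rab9 stood at 62.4 CPM per kilobase of exon, Rab33a at 4.65, Rab39b at 0.176 from 6 counts and Rab9b at 0.0251 from 1 count. These values pool both alleles, so they do not separate the 129 X chromosome, which carries the inducible Xist, from the castaneus X.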
